A study of Danio rerio with 10 samples.

Results

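Zebrafish control embryos of 4.3 h post fertilization (hpf) were set against wild type embryos of 4 hpf on 5 of the 10 arrays of a study of the mid-blastula transition: the 3 arrays titled as wild type at 4.3 hpf and the 2 titled as wild type at 4 hpf. The control embryos belong to experiment 1, in which eggs were injected with placebo or with a morpholino against sox19b, a splice-blocking antisense oligonucleotide. The labels of these samples name them wild type. The study's design text speaks of placebo, and the name control is used here. The 4 hpf embryos belong to experiment 2, which set them against wild type embryos at 2.5 hpf, and no injection is stated for them. All 4 groups were whole embryos of Danio rerio grown to a stated hour after fertilization. The 3 arrays labelled morphant at 4.3 hpf and the 2 arrays of 2.5 hpf are given beside the compared arrays for context. The sources used here do not name strain, parents or the number of embryos per sample, and every p-value measures only the spread between these samples, which may be technical.

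Each of the 2 compared groups lies in an experiment of its own. The difference between them therefore holds the step from 4 to 4.3 hpf, the placebo injection and everything that differed between the experiments, and these cannot be told apart. Nothing below is a measure of developmental time alone.

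A zebrafish embryo starts with RNA laid down in the egg. At the mid-blastula transition its own genome becomes widely transcribed and many maternal transcripts are cleared. In the blastula that follows, the outermost cells form the enveloping layer, a flat keratin-rich epithelium, cells that fuse with the yolk form the yolk syncytial layer, and Nodal signals at the margin induce mesoderm and endoderm, the mesendoderm. BMP signals pattern the ventral side and the organiser, under Wnt control, the dorsal side.

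The Affymetrix Zebrafish Genome Array holds 15617 probe sets, of which 115 are control probe sets and 15502 were tested. The deposited log2 values of the 2 experiments had been normalized apart, so all 10 arrays were quantile normalized together, and every level below is a log2 value on that joint scale. A difference of 1 is therefore a 2-fold change. A probe set was called at a Benjamini-Hochberg adjusted p below 0.05 in limma and at least a 2-fold difference. Background was taken from 17 tag probe sets that have no zebrafish target. The highest group mean among them was 5.45 in control arrays and 5.83 at 4 hpf. A gene is said to appear when it was called higher in controls, lay at or below background in both 4 hpf arrays and above it in all 3 control arrays, and to vanish in the opposite case. These words describe detection between the 2 sets of arrays and say nothing of when a gene was switched on. A fold against a group at background is a lower bound, the bright group's mean over that background value, and is written "at least". A log2 difference given for an appearing or vanishing gene reaches to a level at or below background, so it does not measure the change. Levels of different probe sets were not compared with each other.

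Replicate arrays were alike, with correlations across probe sets of 0.990 to 0.997 among controls and 0.997 between the 4 hpf arrays. Correlations between the groups were 0.874 to 0.903, lowest for control replicate 2, which also correlated least with the other controls. Technical probe sets moved between the groups as well. From 4 hpf to control arrays the tag probe sets differed by a median of -0.54, the Bacillus control probe sets by -0.12, the E. coli and P1 hybridization controls by 0.48, and the tested probe sets by -0.09. The part of such shifts in single results was not tested.

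Of the 15502 probe sets, 1812 (11.7%) were called higher in control 4.3 hpf embryos and 1852 (11.9%) lower. A difference of at least 4-fold was found for 681 higher and 275 lower probe sets. A total of 593 called probe sets lay at or below background in all 5 arrays. A clean separation of the arrays was common: in 34.8% of probe sets all control arrays lay above both 4 hpf arrays, and in 44.4% all lay below, so a lack of overlap alone says little here. The split between higher and lower calls rested on the scaling. Of all calls, 49.5% were in the higher direction on the joint scale and 57.8% with each array centred on its median. The share was 59.9% with arrays scaled on the Bacillus probe sets and 95.9% with arrays centred on the tag probe sets. In the deposited values it was 9.51%, and the median of all probe sets differed by -1.02. Of the 15502 probe sets, tag centring called 5934 higher and 252 lower, and median centring 2577 and 1884. The deposited values gave 827 and 7873. List counts on those scales are to be read beside these numbers. Because the tissue was whole embryos, fewer cells of a type and less RNA per cell cannot be told apart in any value below.

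**Figure D1:**
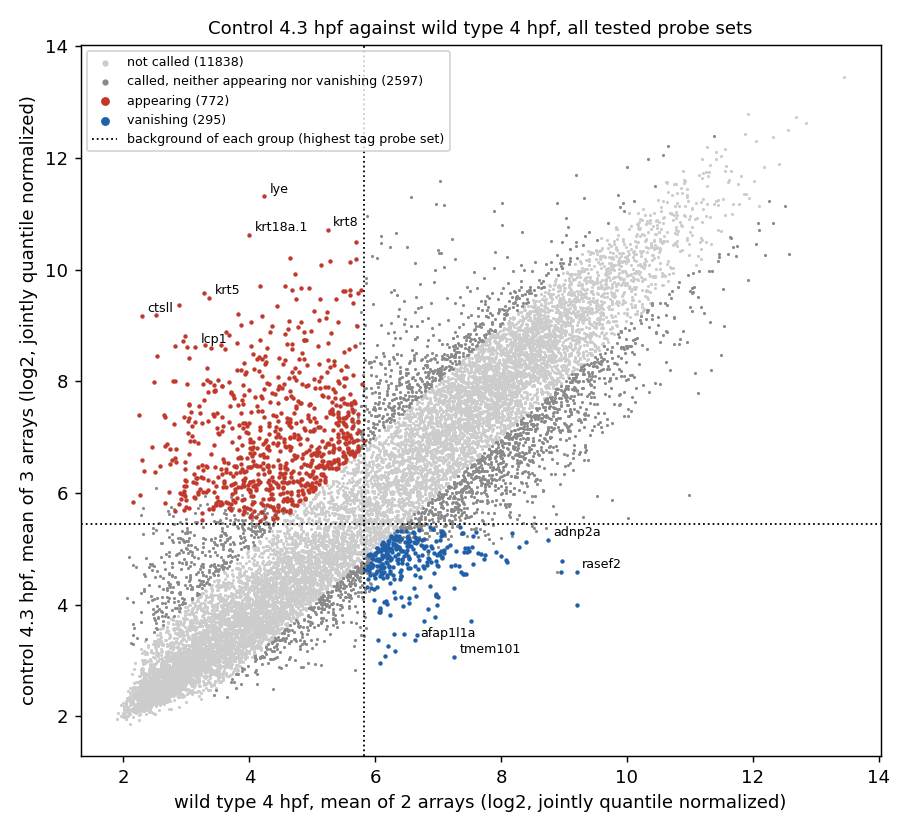
Mean log2 level of every tested probe set in the 3 control 4.3 hpf arrays (vertical axis) against the mean of the 2 wild type 4 hpf arrays (horizontal axis), both jointly quantile normalized. Dotted lines are each group's background, which was higher at 4 hpf, and the counts depend on it. The 772 appearing probe sets fill the upper left and reach further from the diagonal than the 295 vanishing ones at the lower right.

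A total of 772 probe sets appeared (4.98% of those tested) and 295 vanished (1.9%). Counting each gene once, by its probe set of highest mean level on the 10 arrays, 394 of 8793 genes appeared (4.48%) and 179 vanished (2.04%). By the same count 939 genes (10.7%) were called higher and 1222 (13.9%) lower, and each list count below is to be read beside these shares. The lists were written with earlier results of these data known, so their counts describe and do not test. The excess of appearing over vanishing probe sets depended on the background, which was higher at 4 hpf than in controls. With the same percentile as background in both groups, 656 probe sets appeared and 455 vanished. Many of the 772 and 295 probe sets lay close to background. The brighter group stood at least 2-fold above the other group's background for 385 appearing and 134 vanishing probe sets, at least 4-fold for 159 and 24, and at least 16-fold for 10 and 0. The median lower bound was 2.00-fold for appearing and 1.93-fold for vanishing probe sets. Of the 772 appearing probe sets, 732 were at or below background in both 2.5 hpf arrays, and 408 were above background in all 3 morphant arrays. Of the 295 vanishing probe sets, 266 were above background in both 2.5 hpf arrays and 149 in all 3 morphant arrays. By group mean, 50.8% of all tested probe sets lay at or below background at 2.5 hpf and 46.9% in morphants. The 2.5 hpf arrays also share the experiment of the 4 hpf arrays, which helped define these classes. Control replicate 2 was the highest control array for 522 of the 772 appearing probe sets and the lowest for 156 of the 295 vanishing ones. How often it was the highest or lowest control over all probe sets was not counted. Without control replicate 2, 762 probe sets appeared and 326 vanished.

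The largest difference among appearing genes was in lye, which encodes a Ly6-type surface protein of the embryonic epidermis. Its log2 level was 11.25, 11.39 and 11.31 in the 3 control arrays and 4.23 and 4.24 in the 4 hpf arrays. The groups lay far apart, by 7.08 ± 0.182 (SE), with limma adjusted p = 2.85e-11. Against the 4 hpf background the control level was at least 44.8-fold higher. The morphant arrays, at 8.02, 8.67 and 7.84, lay between them, and the 2.5 hpf arrays at 3.69 and 3.68 were below all.

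Keratins are the intermediate filament proteins of epithelia. For krt18a.1 the control arrays gave 10.44, 10.88 and 10.57 and the 4 hpf arrays 4.11 and 3.88, at least 27.9-fold higher (adjusted p = 2.3e-11). For krt5 they gave 9.41, 9.56 and 9.52 against 3.29 and 3.45, at least 12.7-fold higher (adjusted p = 6.06e-11). For krt8 they gave 10.36, 11.04 and 10.74 against 5.38 and 5.11, at least 29.6-fold higher (adjusted p = 7.17e-10). All 3 were below background in both 4 hpf arrays and far above it in every control array. The morphant arrays, which share the experiment and the age of the controls, differed among these genes. They held krt18a.1 at a mean of 8.27, krt8 at 7.08 and krt5 at 4.78, the last below background.

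**Figure D2:**
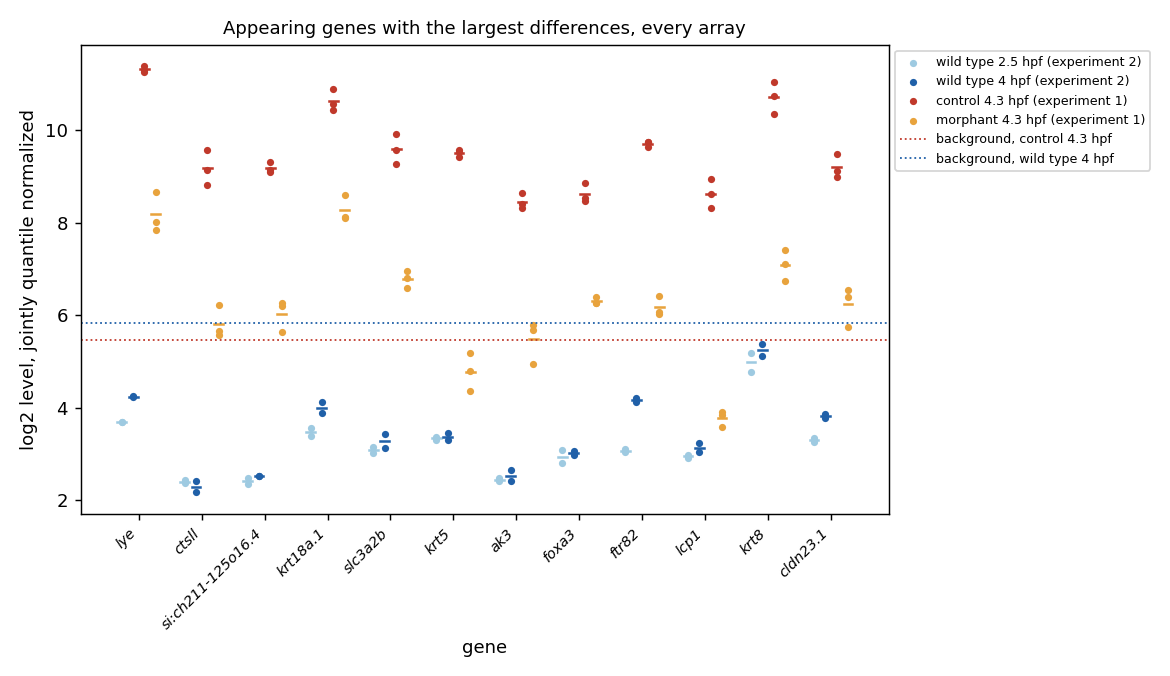
Log2 level of the 12 appearing genes with the largest differences in each of the 10 arrays (points) with group means (bars); dotted lines mark the backgrounds of control and 4 hpf arrays. For every gene the 3 control points lie above both backgrounds and the 2 points of 4 hpf below, while the morphant points lie between the groups and lie below both backgrounds for krt5 and lcp1.

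The 14 measured keratins fell into 2 sets. Appearance was seen for 6 of them (krt18a.1, krt5, krt8, krt97, krt4 and krt17), against 4.48% of all genes, none was called lower, and the other 8 lay at or below background in all 5 arrays. The median difference of the 14 was 0.54, against -0.12 over all genes. Group means were 9.72 against 4.57 for krt97 and 10.16 against 5.28 for krt4. In the deposited values 6 keratins were called higher and 5 lower.

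Of 34 other genes of the enveloping layer, 22 were called higher and none lower, with a median difference of 2.10, and 11 of them appeared; in the deposited values the counts were 18 higher and 5 lower. Besides lye these were tmsb1, a thymosin that binds actin monomers, at 8.83, 9.16 and 9.03 against 3.91 and 3.84, and anxa1a, an annexin that binds membranes in a calcium-dependent way, at 9.30, 10.05 and 9.68 against 4.71 and 4.93. They were at least 9.04-fold (adjusted p = 6.96e-11) and at least 14.4-fold (adjusted p = 2.89e-09) higher. Other appearing members were sult6b1, a sulfotransferase, capn9, a calpain protease, and the transcription factors tfap2c, cebpb, cebpa, grhl1 and gata3. Group means were 9.25 against 5.24 for cebpb and 6.59 against 2.29 for tfap2c. The control mean of tfap2c was close to the 4 hpf background of 5.83. When only probe sets above background in all 5 arrays were kept, the 8 remaining members had a median of -0.10 relative to all such genes, since the members that appear are not in that set. The claudin cldne, a tight-junction gene of this layer, differed by 1.95 but was at or below background in all 5 arrays, so no fold is given.

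Next to these, ctsll, a cathepsin L-like protease gene, stood at 8.82, 9.57 and 9.14 in controls and 2.17 and 2.41 at 4 hpf, which is at least 10.2-fold more (adjusted p = 1.00e-10). The amino acid transporter heavy chain gene slc3a2b gave 9.27, 9.91 and 9.57 against 3.13 and 3.43, at least 13.5-fold. The adenylate kinase gene ak3 gave 8.32, 8.63 and 8.41 against 2.40 and 2.65, at least 6.17-fold. Control replicate 2 was the highest of the 3 controls for each of these, and all 3 control arrays remained far above background. The others of the 12 were si:ch211-125o16.4 (difference 6.66), ftr82, a fintrim gene (5.54), cldn23.1, a claudin (5.39), foxa3 and lcp1. The last, which encodes the actin-bundling L-plastin, is also a leukocyte marker. It measured 8.31, 8.94 and 8.62 against 3.24 and 3.03, whereas morphant arrays held it at 3.77.

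Since lcp1 marks a cell type not yet formed, the list of 52 measured genes of later differentiated tissues was read as a whole. It held 1 gene called higher (lcp1) and 4 lower, 38 of its genes lay at or below background in all 5 arrays, and its median difference was -0.55. Above background were 5, 5 and 6 of them in the control arrays and 9 and 12 in the 4 hpf arrays. Their summed linear level was 1612 to 1860 in controls and 1953 to 2004 at 4 hpf. This sum includes lcp1, which was bright only in controls, so it does not describe the other genes of the list. In the morphant arrays, where lcp1 lay below background, the sum was 1255 to 1373. Among the members called lower, the lens crystallin gene cryaa, the heart myosin gene cmlc1 and the apolipoprotein gene apoa4a were at or below background in all 5 arrays. In the deposited values 48 of the 52 were called lower, on a scale where 7873 of all 15502 probe sets were called lower.

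Of 23 measured genes of the yolk syncytial layer and endoderm, 11 were called higher and none lower (median difference 0.88), and 9 appeared; in the deposited values 10 were higher and 11 lower. The forkhead factor gene foxa3, of endoderm, gave 8.48, 8.85 and 8.52 against 3.05 and 2.98, at least 6.91-fold higher (adjusted p = 1.36e-11). The Sox factor gene sox32, which is needed to specify endoderm, gave 8.47, 9.53 and 8.83 against 4.56 and 4.66, at least 8.65-fold. The apolipoprotein gene apoc1 gave 8.56, 9.71 and 8.93 against 4.99 and 4.66, at least 9.47-fold. Replicate 2 was again the highest control array for all 3. The zinc finger genes gata5 and gata6 and the nuclear receptor gene hnf4a also appeared, with differences of 3.50, 3.19 and 3.03. In controls gata6 measured only 5.94, 6.96 and 6.58, close to the 4 hpf background of 5.83. The call of mxtx2, a homeobox gene of the yolk syncytial layer and one of the earliest to be transcribed, is taken up below.

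Of 32 genes of Nodal signalling and mesendoderm, 19 were called higher and 1 lower, with 9 appearing and a median difference of 1.31; in the deposited values 13 were higher and 6 lower. The T-box gene tbxta, the zebrafish brachyury gene, gave 8.29, 8.99 and 8.51 in controls and 3.42 and 3.36 at 4 hpf, which is at least 6.81-fold more (adjusted p = 1.53e-10). The homeobox gene noto, needed for notochord, gave 9.47, 9.23 and 9.37 against 4.51 and 4.37, at least 11.6-fold (adjusted p = 1.52e-10). The morphant arrays, at 8.50, 8.80 and 8.22, held noto nearly as high, unlike tbxta at 6.32.

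The T-box gene tbx16 was bright in controls, at 10.77, 11.21 and 10.90, and at background at 4 hpf, where 1 of 2 arrays was just above it (6.0 and 5.76). The difference was 5.09 (adjusted p = 3.65e-10), while morphants stood at 6.62. The homeobox gene gsc of the organiser appeared at 8.36, 8.51 and 8.33 against 3.98 and 4.26, at least 5.94-fold. Among the signal molecules the Nodal ligand gene ndr1 appeared with a smaller difference of 1.27. The inhibitor lft1 had a difference of 3.55 and lft2, already above background at 4 hpf, one of 1.87. The receptor gene aplnra, for apelin, appeared as well (9.63 against 5.77). The 1 gene called lower, smad2, an intracellular effector of Nodal signals, differed by -1.0, at the 2-fold threshold; it was not called without control replicate 2 or 4 hpf replicate 2, and centred on the tag probe sets it was 0.32 higher.

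**Figure D3:**
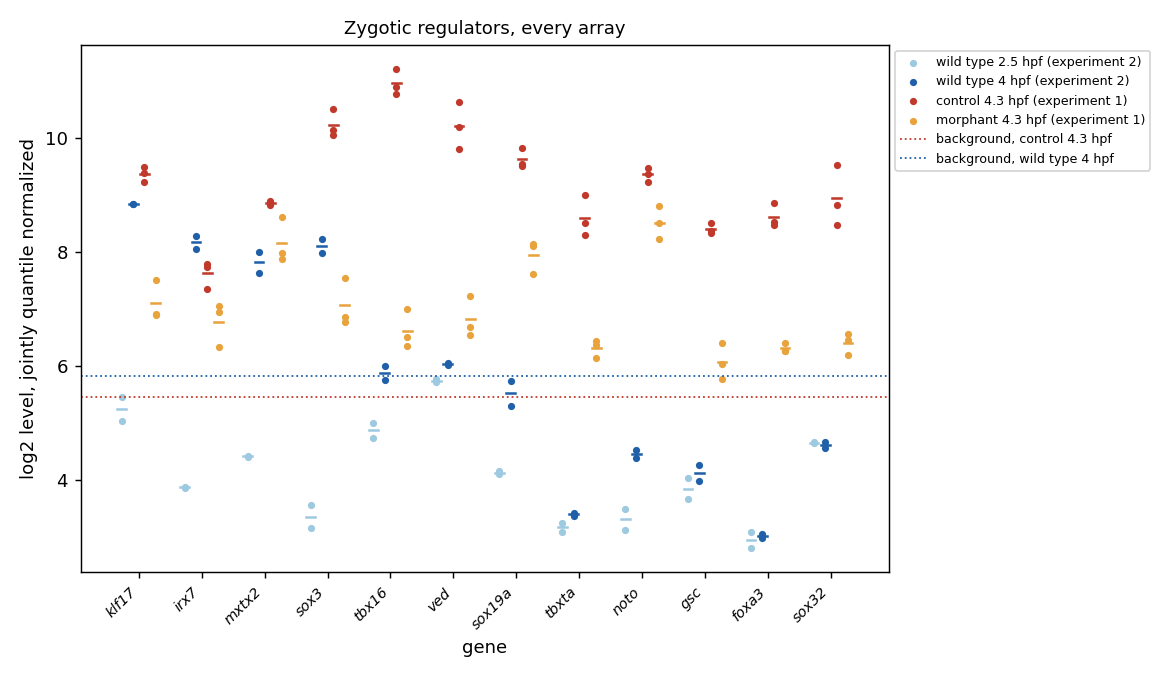
Log2 level in every array for regulators transcribed by the embryo (points, with group means as bars; dotted lines, backgrounds of control and 4 hpf arrays). The genes klf17, irx7 and mxtx2 on the left were bright in both compared groups, and those from tbxta onward were at background at 4 hpf and between 8 and 10 in controls.

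The BMP and ventral list had 16 of 33 genes higher and 4 lower, with 8 appearing and a median difference of 1.15; in the deposited values the counts were 12 and 12. The homeobox repressor gene ved gave 9.80, 10.64 and 10.19 in controls and 6.01 and 6.04 at 4 hpf. It was 18.1-fold higher (limma adjusted p = 8.76e-09), with the 4 hpf arrays just above their background of 5.83. Its relatives vent and vox differed by 2.82 and 2.79, and the ligand genes bmp7a and bmp2b by 3.67 and 2.57. Among inhibitors and targets, bambia, a receptor without kinase activity, was at 9.39, 9.73 and 9.63 against 5.70 and 5.74, at least 13.5-fold. The secreted regulator gene szl gave 6.04, 7.42 and 6.93 against 2.64 and 3.02, at least 1.96-fold, with control replicate 1 below the other controls. The lower genes were smad6a, the receptor genes bmpr1ab (6.16 against 7.77) and bmpr1ba (6.30 against 8.22), and id2a. These directions are those of the joint scale. With other arrays of the 2 experiments subtracted, as explained below, bmpr1ab was no longer called.

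Of 31 genes of the dorsal organiser and Wnt signalling, 14 were higher and 1 lower, with 11 appearing and a median difference of 0.93; in the deposited values 11 were higher and 8 lower, and with tag centring 22 higher and none lower. With other arrays of the 2 experiments subtracted, as explained below, 7 were higher and 1 lower. The Frizzled receptor gene fzd7a gave 9.20, 9.39 and 9.19 against 4.96 and 5.08, at least 10.8-fold higher (adjusted p = 2.9e-11). The BMP antagonist chrd and the Wnt antagonist dkk1b appeared at 8.07 against 5.54 and 7.90 against 5.24. The zinc finger gene sp5l, a Wnt target, gave 6.58, 8.42 and 7.05, with replicate 2 well above the others, against 3.22 and 2.85. It was at least 2.87-fold higher and, with 7.05, 7.03 and 6.71 in morphants and 3.01 and 2.86 at 2.5 hpf, lay near the value of its own experiment in both groups of each. Its call was lost when other arrays of the experiments were subtracted. The lower gene was otx1, a head homeobox gene, at 7.46, 6.70 and 7.23 against 8.89 and 8.95.

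The FGF list had 11 of 25 genes higher and 1 lower, with 6 appearing, 1 vanishing and a median difference of 0.45; in the deposited values 7 were higher and 8 lower. The ligand gene fgf8a gave 8.05, 8.11 and 8.24 against 3.87 and 3.98, at least 4.95-fold. The receptor gene fgfr4 gave 9.19, 9.38 and 9.18 against 5.85 and 5.71, where 1 of 2 arrays lay just above background, a difference of 3.47 (adjusted p = 1.55e-08). The early response gene ier5 gave 9.68, 9.80 and 9.74 against 6.53 and 6.89, 8.19-fold higher (adjusted p = 2.28e-09). All control arrays lay above both 4 hpf arrays for the 3 genes, as they did in 34.8% of all probe sets. The 3 were named for the largest differences in the list, so this separation adds no support. The feedback phosphatase gene dusp6 and the inhibitor spry4 were higher by 2.15 and 2.54. The phosphatase gene dusp5 vanished, at 4.70, 4.30 and 4.68 against 6.17 and 6.03, which is at least 1.57-fold, and the other group of each experiment lay near these levels (4.83 in morphants and 6.05 at 2.5 hpf).

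Among SoxB1 and pluripotency regulators 7 of 22 genes were higher and 1 lower, with 2 appearing and a median difference of 0.57; in the deposited values 5 were higher and 6 lower. On the joint scale the SoxB1 factors did not share a direction. The gene sox19a gave 9.51, 9.83 and 9.54 in controls and 5.30 and 5.73 at 4 hpf, which is at least 13.9-fold more (adjusted p = 1.02e-09). The gene sox3 was already well above background at 4 hpf (7.97 and 8.22) and reached 10.14, 10.51 and 10.04, 4.39-fold higher (adjusted p = 2.41e-06); 2 of its 3 probe sets were called. The maternally supplied sox19b ran the other way, at 8.62, 7.87 and 8.28 against 9.24 and 9.28. That is 2.01-fold lower (limma adjusted p = 2.86e-04), with its other probe set lower as well. Its mean was 8.16 at 2.5 hpf, near the controls, and 9.14 in morphants, near 4 hpf. The gene lost its call with median centring and with arrays scaled on the Bacillus probe sets. It was not called without control replicate 2 or without 4 hpf replicate 2, and with tag centring it was 0.39 higher. The maternal pluripotency factors pou5f3 and nanog differed by less than 2-fold: 11.77 against 10.89 for pou5f3 and 11.47 against 10.86 for nanog.

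The 48 measured genes of the first zygotic wave had 29 higher and 2 lower, with 11 appearing and a median difference of 1.57; in the deposited values 24 were higher and 9 lower. The tally mixes different kinds of gene. Some were already bright at 4 hpf. The Krüppel-like factor gene klf17 gave 9.22, 9.37 and 9.48 in controls and 8.85 and 8.83 at 4 hpf, a difference of 0.52 ± 0.179 (SE) (adjusted p = 0.0205), under 2-fold. The homeobox gene irx7 gave 7.74, 7.78 and 7.35 in controls and 8.28 and 8.05 at 4 hpf, with controls all below (difference -0.54, adjusted p = 0.0245), also under 2-fold. The gene mxtx2 gave 8.87, 8.82 and 8.89 against 8.0 and 7.62, 2.07-fold higher, and lost its call without 4 hpf replicate 2. All 3 lay at or below background at 2.5 hpf, between 3.86 for irx7 and 5.23 for klf17. Others were low at 4 hpf and bright in controls, such as isg15 (8.34 against 4.26), an interferon-stimulated ubiquitin-like gene, and hes6, a Hairy-related factor gene (8.45 against 4.25). The small heat shock protein gene hspb1 gave 11.17, 11.64 and 11.08 against 6.72 and 6.41, above background in all 5 arrays, and was 26.5-fold higher (adjusted p = 1.31e-09). The 2 lower members, otx1 and the claudin gene cldnd, were already bright at 2.5 hpf, at 9.34 and 12.51. This sets them apart from both kinds above, and their place in a list of first zygotic genes is doubtful. With tag centring cldnd was 0.073 higher.

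Genes above background in all 5 arrays have a measured fold, though in some the dimmer group sat close to background. Of 6768 such probe sets, 570 were higher and 996 lower. After hspb1 the largest were dynll1, a dynein light chain gene, at 11.42, 11.65 and 11.67 against 6.99 and 7.08 (23.3-fold, adjusted p = 2.9e-11), and ccnd1, which encodes cyclin D1 of the G1 phase, at 10.73, 10.59 and 10.63 against 6.36 and 6.31 (19.9-fold, adjusted p = 8.91e-10). Morphant means lay between the groups for both (9.33 and 7.60). The SoxC factor gene sox11a gave 9.42, 9.34 and 9.42 against 5.94 and 5.99, 10.7-fold higher. The names of the probe sets used for dynll1 and sox11a share a cluster number. Whether both gene assignments hold was not checked. The RNA-binding protein gene ewsr1a gave 9.30, 10.16 and 9.36 against 6.12 and 6.37, 10.3-fold higher. The remaining ones among the 8 were ved, si:ch211-152c2.3 and mid1ip1a. At 4 hpf sox11a and ved (6.01 and 6.04) lay just above the background of 5.83. Among genes called lower, mdm4 (5.77) and trmt9b (5.62) lay just above the control background of 5.45. Such folds carry much the same limit as the lower bounds.

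The 52 measured genes of the oocyte and maternal RNA control had no gene called higher, 24 lower (46.2%, against 13.9% of all genes) and 28 not called. The median difference was -0.91. The list was written with earlier results of these data known, so this contrast is a description and not a test. With tag centring, which called 5934 of all 15502 probe sets higher, the counts were 15 higher and 5 lower. The only vanishing member was rasef2, a small GTPase gene, at 5.17, 4.13 and 4.48 in controls and 9.15 and 9.26 at 4 hpf, at least 13.5-fold lower (adjusted p = 4.78e-09). The phosphatase gene pgp gave 6.41, 5.51 and 5.90 against 9.52 and 9.54, 12-fold lower (adjusted p = 8.15e-09). The gene btg4, which in mice directs removal of maternal mRNA, gave 9.04, 7.66 and 8.69 against 11.47 and 11.50, 8.11-fold lower (adjusted p = 1.16e-06). In all 3 the lowest control array was replicate 2. The morphant arrays did not show this for btg4, at 11.47, 11.59 and 11.33, or for pgp, at 9.26, 9.32 and 9.28, and held rasef2 at 7.97. The oocyte kinase gene mos gave 7.42, 6.88 and 7.33 against 9.52 and 9.44, 4.83-fold lower, and the oocyte growth factor gene bmp15 and the zinc finger gene zar1 differed by -2.12 and -1.39. The DNA methyltransferase gene dnmt1 and the histone mRNA-binding gene slbp2 differed by -2.10 and -2.08. The claudin gene cldng, mostly maternal, gave 10.001, 9.52 and 9.92 against 11.91 and 11.94, 4.31-fold lower, but of its 4 probe sets 3 were called higher and 1 lower, so its direction depended on the probe set.

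Germ plasm RNA sits at the cleavage furrows and marks future germ cells. The germ plasm list had 7 of 21 genes called lower (33.3%) and 2 higher (9.52%), cxcr4b (1.54) and rnpc3 (1.22). Over all genes these shares were 13.9% and 10.7%. At 2.5 hpf both cxcr4b (5.02) and rnpc3 (5.67) lay below the background of 5.81, so their place in a list of germ plasm RNA is doubtful. The call of rnpc3 was lost in the deposited values. The median difference of the list was -0.44. With tag centring, which called 5934 of all 15502 probe sets higher, 2 were lower and 9 higher. The Tudor gene tdrd6a of germ granules gave 6.17, 5.65 and 5.80 against 9.84 and 9.70, 14.9-fold lower (adjusted p = 2.76e-10). The gene buc, which organises germ plasm, gave 8.56, 7.71 and 8.33 against 11.34 and 11.32, 8.76-fold lower (adjusted p = 2.01e-08). The helicase gene ddx4 (vasa) and the Piwi gene piwil1 showed no detectable difference: 8.65 against 8.69 and 7.20 against 7.19, with adjusted p = 0.723 and 0.938. The RNA-binding gene dazl was 2.03-fold lower at 7.12, 7.04 and 7.06 against 8.08 and 8.11; with tag centring it was 0.15 higher. Among all lower genes above background were trmt9b (-3.24), the p53 inhibitor gene mdm4 (-3.05), the glycogen-targeting gene ppp1r3c2b (-2.93) and hist1h2a6 (-3.34), a histone H2A gene of a multigene family whose signal may be shared by its copies.

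**Figure D4:**
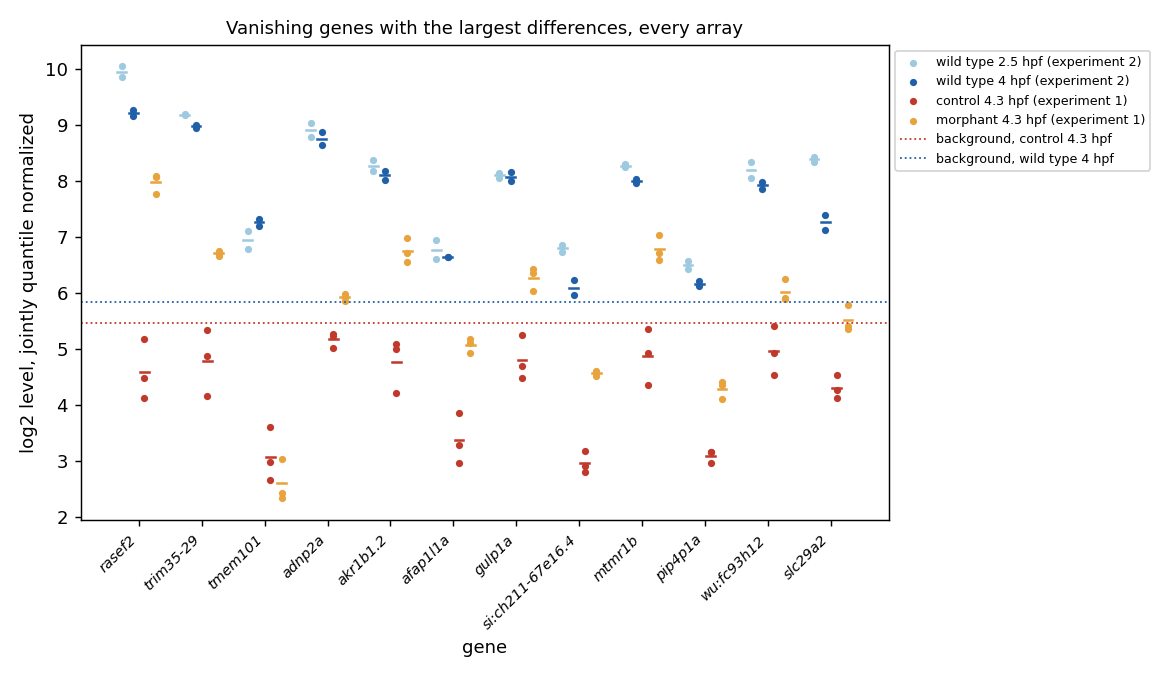
Log2 level of the 12 vanishing genes with the largest differences in each of the 10 arrays (points) with group means (bars) and the backgrounds of control and 4 hpf arrays (dotted lines). The 2.5 and 4 hpf points lie above background for all 12 genes, and the morphant points lie above the controls except for tmem101.

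The 12 vanishing genes with the largest differences included trim35-29, a TRIM gene, at 5.33, 4.16 and 4.87 in controls and 8.99 and 8.94 at 4 hpf, at least 11.4-fold lower (adjusted p = 1.47e-08). The homeobox zinc finger gene adnp2a gave 5.26, 5.02 and 5.23 against 8.63 and 8.86, at least 9.79-fold lower (adjusted p = 1.56e-10). Others were the aldo-keto reductase gene akr1b1.2 (-3.33), gulp1a, an engulfment adaptor gene (-3.27), mtmr1b, a phosphoinositide phosphatase gene (-3.12), and slc29a2, a nucleoside transporter gene (-2.95). For most the morphant mean lay between control and 4 hpf levels: 6.70 for trim35-29, 5.92 for adnp2a and 6.27 for gulp1a. For tmem101 it did not. The gene gave 2.97, 3.60 and 2.65 in controls and 7.31 and 7.19 at 4 hpf, yet also 2.42, 3.03 and 2.33 in morphants and 6.78 and 7.10 at 2.5 hpf, so both groups of experiment 1 were low and both of experiment 2 high. The direction of tmem101 was lost when that other pair was subtracted, as explained below. Further genes of the 12 kept a negative difference there but lost their call. Among them were slc29a2, at -0.081 (limma adjusted p = 0.824), and adnp2a, at -0.59, under 2-fold.

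The morphant 4.3 hpf and 2.5 hpf arrays form another pair across the same 2 experiments. It shares no array with the compared groups, and its gap in age is wider. The other pair had 1089 probe sets called higher (7.02%) and 852 lower (5.5%). Of those called higher here, 813 were higher there too, 44.9% of this set and 74.7% of the other. Of those called lower, 599 were lower there, 32.3% of this set and 70.31% of the other. The differences of the 2 pairs correlated at 0.746 across probe sets, which share arrays of the same design and are not independent. With the other pair's difference subtracted in the fit, 884 probe sets were higher and 970 lower, 437 appeared and 102 vanished. This removes an additive offset of an experiment and also whatever the pairs share by age. The result equals the control minus morphant difference less the 4 hpf minus 2.5 hpf difference. It therefore also holds the difference between control and morphant embryos, and is not a corrected form of the comparison made here. Of the enveloping layer genes, 18 of 34 and 6 of 14 keratins were then called higher. Of the first zygotic genes 14 of 48 were higher and 7 lower, and the Nodal list had 8 higher. Maternal oocyte genes had 18 lower and 1 higher. The gene sox3 turned to -1.57, since its morphant minus 2.5 hpf difference was larger than its difference here. The same held for mxtx2 (-2.70) and klf17 (-1.35). The gene ier5 turned as well (-1.45, limma adjusted p = 1.33e-04). The sign changed for noto (-0.29), txnipa (-0.42), bbc3 (-0.43) and xiap (0.16). Their limma adjusted p were 0.385, 0.0667, 0.086 and 0.625, so the difference was lost and no reversal is shown. The call of sox19a was also lost.

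Among housekeeping groups, of 72 cytosolic ribosomal protein genes 1 was called higher and none lower (median difference 0.24). That gene was rpl22l1, whose call was lost without control replicate 2 or without 4 hpf replicate 1. With tag centring all 72 were higher, on a scale where 5934 of all 15502 probe sets were called higher. Ribosome biogenesis genes had 10 of 65 higher and 1 lower (median 0.32), 25 higher with median centring, 53 with tag centring, and 4 higher and 4 lower in the deposited values; among them were gnl3, nucleostemin, at 8.51 against 6.13, and npm1b, a nucleophosmin gene, at 7.16 against 4.87. Splicing genes had 17 of 72 higher and 1 lower (median 0.67), with 56 higher under median centring, 70 under tag centring and 12 in the deposited values. Of the splicing genes ptbp1a gave 9.43, 9.63 and 9.56 against 6.35 and 6.35, 9.15-fold. The lower one was lsm1, of mRNA decapping, which was 5.9-fold lower. Oxidative phosphorylation genes had 2 of 65 higher (3.08%) and 7 lower (10.8%, below the 13.9% of all genes), with a median of -0.28. With tag centring 38 were higher and none lower. Cell cycle and replication genes had 7 of 73 higher (9.59%) and 10 lower (13.7%), near the 10.7% and 13.9% of all genes (median -0.25). With median centring 17 were higher and 3 lower, and with tag centring 44 higher and none lower. The higher ones held ccnd1, the cell cycle inhibitor gene cdkn1ca (2.79) and the replication helicase gene mcm3 (2.38), the lower ones birc5b (-2.26), a survivin gene, and the clamp loader gene rfc1 (-1.94). The difference of actb1, beta-actin, was -0.21 (adjusted p = 0.0712) and of arl6ip1 0.07 (adjusted p = 0.533), and neither was called; with tag centring actb1 was called 1.36 higher.

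Stress and p53 genes were mixed. Of 33 stress and heat shock genes 8 were called higher and 8 lower (24.2% each), with 17 and 0 under tag centring. Of 28 p53 target and apoptosis genes 7 were higher (25%) and 4 lower (14.3%), with 5 and 7 in the deposited values. Over all genes 10.7% were higher and 13.9% lower, so the share of lower p53 genes was near that of all genes. The redox gene txnipa appeared (8.41 against 4.48) and measured 8.53 in morphants and 4.18 at 2.5 hpf. The antioxidant enzyme genes sod1 and cat were lower, with differences of -1.99 and -1.63. Of the p53 target and apoptosis list, sesn3 and phlda3 appeared, with differences of 5.25 and 2.65, at least 8.35-fold and at least 1.86-fold. So did bbc3, a cell death gene, at 6.13 against 3.48, at least 1.23-fold, with 6.32 in morphants. The apoptosis inhibitor genes xiap and mcl1b were lower, with differences of -1.44 and -1.28.

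Genes of actin, adhesion and epiboly, the spreading of cells over the yolk, had 15 of 51 higher and 4 lower (median 0.25); in the deposited values 11 were higher and 12 lower. After lcp1 and tmsb1 came marcksa, an actin-linked membrane protein gene, at 9.03, 9.16 and 9.32 against 3.92 and 4.48, at least 10.2-fold. Its other probe set was at or below background in all 5 arrays. The small GTPase genes rhoaa and rhoab differed by 3.84 and 3.69, and the kinase gene rock2a by -1.72. Among the lower genes of the list, acta1a lay at or below background in all 5 arrays. Neural plate genes had 11 of 53 higher and 4 lower, 33 of them at or below background in all 5 arrays, and a median of -0.02. Those 33 include six3b, which was called lower. In the deposited values 8 of the list were higher and 32 lower. The zinc finger gene zic2b gave 10.09, 10.37 and 9.96 against 5.49 and 5.70, at least 19.8-fold higher. Its relative zic2a gave 7.89, 8.51 and 7.68 against 3.50 and 3.51, at least 4.59-fold higher. Both appeared, while the further probe set of each was at or below background in all 5 arrays.

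**Figure D5:**
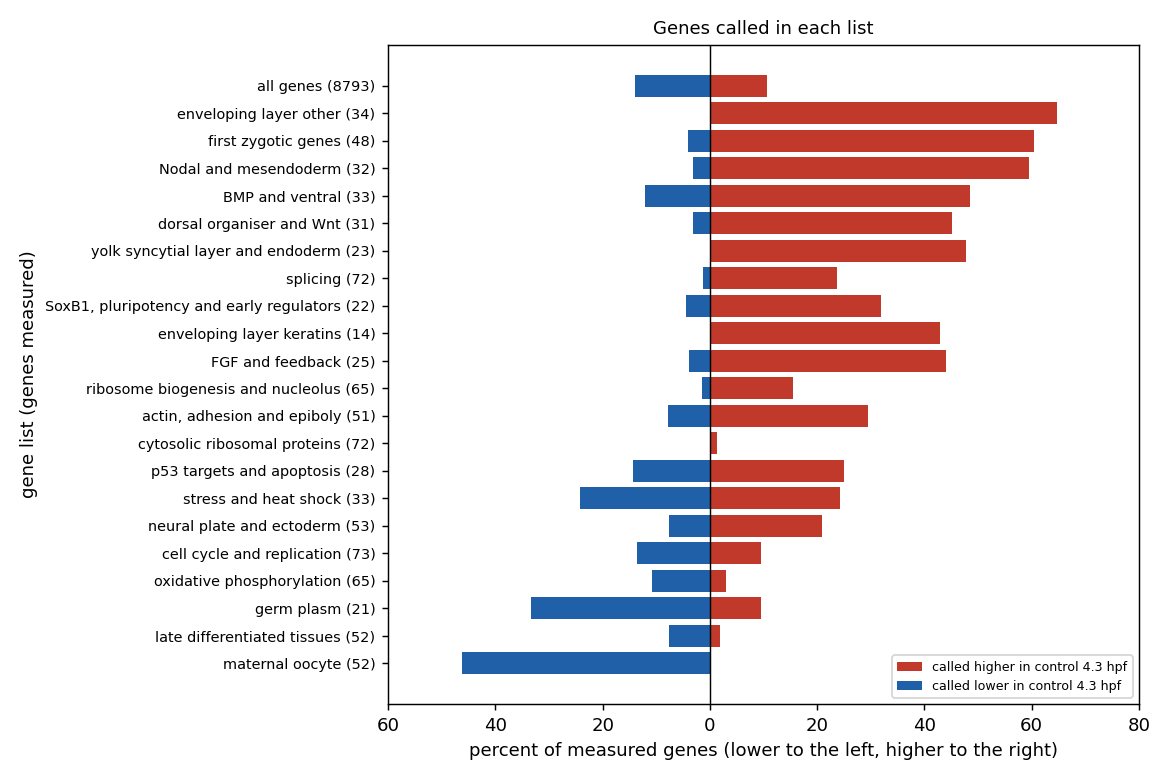
Percent of the measured genes of each list called higher (right of 0) or lower (left of 0) in control 4.3 hpf arrays, on the joint scale, with the number of measured genes in parentheses; the top bar gives all 8793 genes, at 10.7% and 13.9%. The non-keratin enveloping layer, first zygotic and Nodal lists reach 59.4% to 64.7% on the right, and the maternal oocyte list 46.2% on the left. The lists were written with earlier results of these data known.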

How the data were processed

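RNA of whole embryos was hybridized to 10 Affymetrix arrays with 1 channel each, and 5 arrays were compared. Each probe set has a log2 value, deposited by the authors and made with affy and RMA (robust multi-array average), per the submitters' processing notes, with versions not given in the sources used. Between sorted values of array pairs the largest gap was 0.362 inside experiment 1, 0.194 inside experiment 2 and 1.52 across them, so the experiments were treated as normalized apart. Deposited array medians were 5.39 to 5.42 in controls and 6.25 at 4 hpf.

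All 10 arrays were quantile normalized together (limma 3.58.1, R 4.3.3). Joint quantile normalization forces equal distributions and so removes any true difference in total signal. One model with 4 groups was fitted (lmFit and eBayes, two-sided, group as the only term), with Benjamini-Hochberg adjustment over 15502 probe sets; calls needed an adjusted p below 0.05 and a 2-fold difference. Every adjusted p of a gene is from this limma fit. The fit was tested on simulated data. Arrays give no counts, so their number limits the precision.

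The array annotation gave 1 gene for 10795 probe sets, several for 135 and none for 4572, and 10711 were matched by Entrez identifier to RefSeq names of the assembly GRCz12tu. Genes with several probe sets numbered 1539, of which 9 were called in both directions. The comparison and the 21 gene lists (899 measured entries, 68 genes in several lists) were chosen with earlier results of these data known, and no list was tested as a set.

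Genes were named by rule: the 12 appearing and 12 vanishing genes with the largest differences, the 8 largest in each direction above background in all 5 arrays, up to 3 per list and direction, and 16 set genes. Other genes in the text were chosen from the lists after their values were seen. Alternatives were other scalings, percentile ranks, other backgrounds, filters and thresholds, and leaving out each array. Subtracting the other pair and asking for 2-fold above background were added after the data were seen. After group means were removed, arrays of the 2 groups with the same replicate number correlated at 0.0207 and 0.0534, so the numbers do not pair the samples. Sequences and positions were not used here. Plots used matplotlib 3.10.9 (Python 3.11.15).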

Additional observations from a re-analysis of the deposited data

How the results depend on the processing

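The main limit is the design: experiment, injection and time cannot be told apart, and the normalization across experiments sets the balance of calls. On the joint scale 1812 probe sets were higher, 1852 lower, 772 appeared and 295 vanished. The deposited values gave 827 higher, 7873 lower, 506 appearing and 367 vanishing. Tag centring gave 5934 higher, 252 lower, 973 appearing and 89 vanishing. Keeping probe sets above background in all 5 arrays left 570 higher and 996 lower, and no gene can then appear or vanish by construction. Without a fold threshold 4700 were higher and 6048 lower. At 4-fold the counts were 681, 275, 495 appearing and 96 vanishing. The second highest tag as background gave 881 appearing and 175 vanishing. With the same percentile as background in both groups 656 appeared and 455 vanished, so the excess of appearing over vanishing probe sets depended on the background. With the other pair subtracted, chosen after seeing the data, the counts were 884, 970, 437 and 102. Asking for 2-fold above background, also added later, left 385 and 134. Leaving out 1 array in turn gave 1738 to 1892 higher, 1752 to 1939 lower, 762 to 872 appearing and 259 to 367 vanishing. Without 4 hpf replicate 1 the 4 hpf background was 6.07, and without replicate 2 it was 5.72. A fit with the replicate number as a block gave 1817, 1866, 768 and 298, and changed no call of a named gene, although the numbers do not pair the samples.

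List medians relative to all genes changed sign in a few settings. With median centring, in the deposited values and with tag centring, neural plate genes stood at -0.15, cell cycle genes at 0.45 and oxidative phosphorylation genes at 0.33, against 0.10, -0.13 and -0.17. These settings differ only by a constant per array, so their relative medians are the same by construction and are not separate checks. With only probe sets above background in all 5 arrays, non-keratin enveloping layer genes stood at -0.10 and stress genes at -0.14. With the other pair subtracted, neural plate, p53 and stress genes stood at -0.017, -0.034 and -0.058. Calls of single genes moved as well. Of 122 named genes, 26 lost their call with tag centring and 28 with the other pair subtracted, while 5 and 2 gained one. Others changed sign. With tag centring smad2 stood at 0.32, sox19b at 0.39, cldnd at 0.073, polr1e at 0.24, atp5f1c at 0.10, dazl at 0.15 and actb1 at 1.36. With the other pair subtracted tmem101 stood at 0.16, noto at -0.29, ier5 at -1.45, pold2 at 1.05, bbc3 at -0.43, xiap at 0.16, txnipa at -0.42, atp5pd at 0.67, sox3 at -1.57, klf17 at -1.35 and mxtx2 at -2.70. Of 122 named genes, leaving out control replicate 2 ended the call of 5 (smad2, sox19b, rpl22l1, ndufs6 and cox7c), control replicate 3 of cox7c, 4 hpf replicate 1 of rpl22l1, and 4 hpf replicate 2 of 4 (smad2, sox19b, acta1a and mxtx2). The cause of these changes was not tested.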

Other observations

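Some probe sets stood at one level in both groups of 1 experiment and at another in both groups of the other; the groups of the 2 experiments also differ in age, and experiment and age cannot be told apart. In 516 of the probe sets called higher (28.5%) and 592 of those called lower (32%), the 2 groups of each experiment lay within 0.5 of each other on the log2 scale. This held for 147 appearing and 101 vanishing probe sets. How often it held over all tested probe sets was not counted, so these shares have no background to be read beside. The genes below were picked from the larger such differences after their values were seen. The gene rab5b, of early endosomes, stood at 8.58 in controls and 8.60 in morphants, but at 3.61 and 3.93 at 4 and 2.5 hpf. The gene zgc:112271 stood at 7.40 and 6.92 against 2.25 and 2.35, and the ubiquitin ligase gene rnf13 at 8.23 and 8.0 against 4.08 and 4.18. In the other direction, pycr3, of proline synthesis, stood at 4.92 and 5.07 against 7.68 and 7.99. The ubiquitin-conjugating enzyme gene ube2d2 stood at 6.33 and 6.21 against 9.0 and 9.06.

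The lowest difference of any probe set in the vanishing class belonged to a further probe set of spint1b, an epithelial protease inhibitor gene. It measured 4.00 in controls and 9.20 at 4 hpf, with 3.62 in morphants and 9.24 at 2.5 hpf. The probe set used for this gene measured 7.21 against 9.08, so the probe sets agreed in direction and not in size. For wls, a Wnt secretion gene, 1 further probe set appeared (8.64 against 2.81), while the probe set used for the gene differed by -0.55.

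The gene arl6ip1 measured 7.83 in controls and 7.76 at 4 hpf, but 10.86 in morphants and 9.81 at 2.5 hpf. The gene morc3a lay at or below background in both compared groups (5.14 and 4.58), and at 6.14 and 6.90 in the others.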
